A study of Bos grunniens x Bos taurus and Bos grunniens with 6 samples.

Results

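Lactate and glucose transporters of the testis were taken as every gene of the deposited table whose symbol, regardless of case, was SLC2A1, SLC2A3, SLC2A5, SLC2A8, SLC16A1, SLC16A3, SLC16A7, BSG or EMB. Each symbol stood on 1 gene, which gave 9 genes of the 18918 in the table. They were compared in RNA-seq libraries from the testes of 6 animals, 3 cattle-yak named C1 to C3 and 3 yak named Y1 to Y3, with 1 library per animal. Cattle-yak were sterile F1 males from a Jersey cattle sire and a Gannan yak dam, yak were Gannan males, and all were 4 years of age. The counties of origin differed between the groups, and the methods state that cattle-yak were castrated and yak euthanised to obtain the testes, whereas the sample labels name castration for all animals. These conditions cannot be told apart from the groups.

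In the seminiferous tubule, Sertoli cells take up glucose, convert much of it to lactate and hand the lactate to the germ cells, which sit behind the blood-testis barrier and use it as fuel from the spermatocyte stage on. Facilitative hexose carriers of the SLC2A family (GLUT proteins) bring glucose or fructose into a cell, and monocarboxylate carriers of the SLC16A family (MCT proteins) move lactate and pyruvate together with a proton. The main lactate carriers among the MCT proteins reach the cell surface with a single-pass membrane partner of the immunoglobulin superfamily, basigin (BSG) or embigin (EMB). Sperm use sugars, including fructose of the seminal fluid, for motility.

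FPKM gives the fragments on a gene relative to the length of its model and to the depth of the library, so that levels can be compared between genes per length. The values rested on 11175100 to 11834987 fragments on genes in cattle-yak and 12991641 to 13136129 in yak. The tissue check against marker lists found 11 of 11 Sertoli genes, 7 of 7 Leydig genes and 6 of 6 myoid genes higher in cattle-yak, while 5 of 6 round spermatid genes and 5 of 5 elongating spermatid genes were lower. The 11 Sertoli genes carried 10 symbols and the 7 Leydig genes 5, since CLU and CYP17A1 each stood on more than 1 gene. In testis tissue of such different cell content, fewer cells of a type and less RNA per cell cannot be told apart.

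The hexose carriers split in cattle-yak. SLC2A3, SLC2A5 and SLC2A8 fell, by 2.79, 3.70 and 2.29 on the log2 scale, whereas SLC2A1 rose by 1.40. Among the lactate carriers SLC16A7 rose by 1.19, and the chaperones BSG and EMB rose by 1.36 and 2.64. Of these 4 higher genes, only EMB stayed above 0 when the libraries were centred on Sertoli marker genes. The test was limma on log2 (FPKM + 1). A gene was called where its p, adjusted by Benjamini-Hochberg, was under 0.05 and its log2 fold change exceeded 1 in size. Changes of genes with low FPKM come out too small on this scale. All 9 genes reached the minimum mean of 0.5 FPKM over the 6 animals. SLC16A3 did so only through cattle-yak, since its mean was 0.993 FPKM there and 0.336 FPKM in yak, and it is included in the counts on that condition. With these thresholds 4 of 9 genes were called higher in cattle-yak, where 33.4% of the 15042 tested genes were called higher, and 3 of 9 were called lower, where 20.8% of the tested genes were called lower. These 7 of 9 genes stood against 54.2% of the tested genes in either direction. SLC16A1 and SLC16A3 passed the adjusted p but not the fold change. By the adjusted p alone, all 9 genes passed, 6 higher and 3 lower, as did 81.9% of the tested genes, 52.6% higher and 29.2% lower. In all 9 genes the values of cattle-yak and yak animals did not overlap, which was so for 84.1% of the tested genes, 53.9% higher and 30.2% lower. The median log2 fold change was 0.79 over the 9 genes and 0.51 over all genes tested, and the median size regardless of sign was 1.40 and 1.09.

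The median of all tested genes depended on the scaling between libraries, and so did the calls of the higher genes. Under median-of-ratios scaling, which brought the median of all tested genes to 0.01, EMB was the 1 gene of the 9 called higher and 3 were called lower, against 17.7% and 27.7% of the tested genes, while SLC2A1, SLC16A7 and BSG had 0.87, 0.62 and 0.75. When each library was instead centred on the mean of 11 Sertoli marker genes, 0 of the 9 genes were called higher by limma and 5 lower, against 0.259% and 70.8%. There the values of SLC2A1, SLC16A1, SLC16A3, SLC16A7 and BSG turned negative. This centring lowers the log2 fold change of every gene by the same amount, so that EMB went from 2.64 to 0.51. SLC2A3, SLC2A5 and SLC2A8 could therefore only stay lower under it, and they stayed lower under every other alternative tried. Genes of low FPKM, such as SLC16A3, 1 of the 5, come out too low there, since the shift is applied after the pseudocount.

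**Figure D1:**
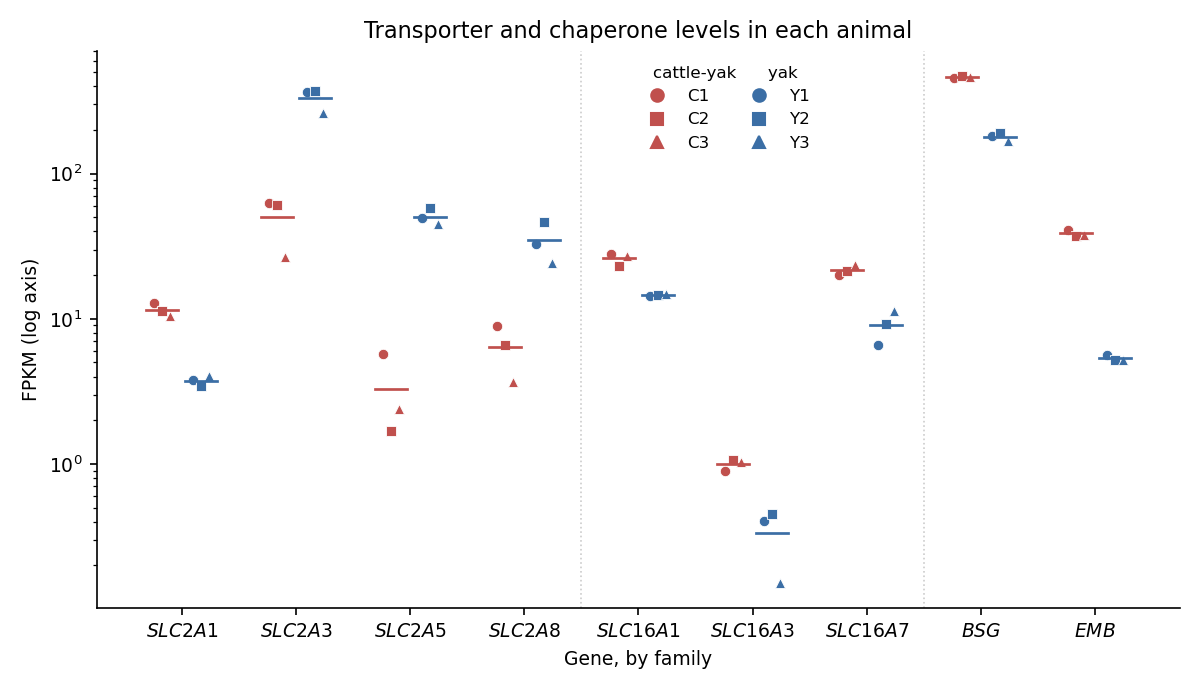
FPKM of the 9 genes on a log axis, with 1 point per animal (cattle-yak C1 to C3 in red, yak Y1 to Y3 in blue) and a line at each group mean. SLC2A3, SLC2A5 and SLC2A8 lie lower in every cattle-yak animal than in every yak animal, and the other 6 genes lie higher on this scale, 5 of which turn lower when the libraries are centred on the Sertoli markers.

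SLC2A3 (ENSBGRG00000009442) encodes GLUT3, a high-affinity glucose carrier of neurons that is also abundant in male germ cells. It had 62.8, 60.7 and 26.5 FPKM in C1 to C3, and 364.6, 370.3 and 261 FPKM in Y1 to Y3. The lowest yak animal was 4.16 times as high as the highest cattle-yak animal, and C3 and Y3 were the lowest of their groups. The group means of 332 ± 61.6 FPKM in yak and 50.0 ± 20.4 FPKM in cattle-yak (SD, n = 3) differed by −2.79 on the log2 scale (SE 0.31, limma adjusted p = 5.6e-05). In yak SLC2A3 lay above 98.7% of all genes in the table by its mean FPKM, and in cattle-yak above 87.0%.

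SLC2A5 (ENSBGRG00000011535), which encodes the fructose carrier GLUT5, had 5.69, 1.69 and 2.40 FPKM in C1 to C3, and 49.2, 57.8 and 44.8 FPKM in Y1 to Y3. These values stood for 143, 40 and 59 fragments in cattle-yak and for 1235 to 1607 in yak. C1 was the highest of the cattle-yak animals, yet the yak animals were all at least 7.87 times as high as C1. The log2 fold change was −3.70 (SE 0.31, limma adjusted p = 9.6e-06), the largest change in size among the 9 genes, and 4.70% of all tested genes had a larger one in either direction.

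SLC2A8 (ENSBGRG00000004637) encodes GLUT8, a hexose carrier kept largely on internal membranes and abundant in the testis. It had 8.85, 6.61 and 3.65 FPKM in C1 to C3, and 32.8, 46.8 and 24.3 FPKM in Y1 to Y3. The groups were 2.75-fold apart at their nearest animals, and the spread in yak was the widest of the 4 hexose carriers there, with a coefficient of variation of 32.8%. The group means of 6.37 ± 2.61 and 34.6 ± 11.3 FPKM (SD, n = 3) gave a log2 fold change of −2.29 (SE 0.31, limma adjusted p = 1.7e-04).

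SLC2A1 (ENSBGRG00000011665) encodes GLUT1, the basal glucose carrier of many cells and of tissue barriers, and was the only one of the 4 hexose carriers to rise. It had 12.9, 11.3 and 10.4 FPKM in C1 to C3, and 3.76, 3.45 and 4.04 FPKM in Y1 to Y3. Every cattle-yak animal was above every yak animal, by a factor of at least 2.58. The log2 fold change was 1.40 (95% confidence interval 1.08 to 1.71, limma adjusted p = 2.4e-05), or 0.89 above the median of all tested genes, and −0.74 when the libraries were centred on the Sertoli markers.

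SLC16A1 (ENSBGRG00000004446) encodes MCT1, the most widespread lactate carrier. It had 27.9, 23.0 and 27.2 FPKM in C1 to C3, and 14.5, 14.5 and 14.8 FPKM in Y1 to Y3. The yak animals were nearly level, with a coefficient of variation of 1.29%, and all lay under the lowest cattle-yak animal. The log2 fold change of 0.79 (95% confidence interval 0.53 to 1.05, limma adjusted p = 2.3e-04) did not pass the threshold of 1 and lay 0.28 above the median of all tested genes. With median-of-ratios scaling it was 0.20 and no longer passed the adjusted p (limma adjusted p = 0.152), and centred on the Sertoli markers −1.35.

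SLC16A7 (ENSBGRG00000009741) encodes MCT2, a carrier with a high affinity for lactate and pyruvate. It had 20.1, 21.4 and 23.3 FPKM in C1 to C3, and 6.60, 9.21 and 11.4 FPKM in Y1 to Y3. No yak animal reached the cattle-yak range, and Y1 was the lowest. The log2 fold change was 1.19 (SE 0.18, limma adjusted p = 3.5e-04), and centred on the Sertoli markers −0.94. It came close to the threshold without Y1, at 1.01, and stood at 1.36 without Y3.

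SLC16A3, listed as Slc16a3 (ENSBGRG00000005938), encodes MCT4, which exports lactate from strongly glycolytic cells. It was the least abundant of the 9 genes in both groups, with 0.892, 1.06 and 1.02 FPKM in C1 to C3, and 0.402, 0.453 and 0.152 FPKM in Y1 to Y3. These levels rested on 16, 18 and 18 fragments in cattle-yak and on 8, 9 and 3 in yak. The exact 95% Poisson interval covers counting error only. In the nearest animals of the groups it was 0.510 to 1.45 FPKM in C1 and 0.207 to 0.860 FPKM in Y2. These intervals overlapped, which is no test of a difference. In Y3 it was 0.0314 to 0.445 FPKM, under the intervals of all cattle-yak animals. The mean level was 2.96 times as high in cattle-yak. Its log2 fold change was 0.58 (95% confidence interval 0.21 to 0.96, limma adjusted p = 9.3e-03) and depended on the pseudocount, since it was 1.40 with a pseudocount of 0.1 and 1.62 with voom in limma on the fragments, where 5 of the 9 genes were called higher and 3 lower, against 39.7% and 22.7% of the tested genes. With median-of-ratios scaling it was 0.35 (limma adjusted p = 8.5e-02), and centred on the Sertoli markers −1.55. The centred value, which passed both thresholds as lower (limma adjusted p = 4.8e-05), comes out too low. In FPKM the mean rose 2.96-fold, and the means of the single Sertoli genes rose 2.40-fold (AMH) to 9.29-fold (KITLG).

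BSG (ENSBGRG00000005465) encodes basigin, the partner of MCT1 and MCT4, and male mice that lack it are sterile. It had 458, 470.2 and 464 FPKM in C1 to C3, and 182, 190.4 and 167 FPKM in Y1 to Y3. The cattle-yak animals had a coefficient of variation of 1.34%, the narrowest of the 9 genes in that group, and every one was at least 2.40 times as high as any yak animal. The log2 fold change was 1.36 (SE 0.09, limma adjusted p = 2.6e-06), 0.85 above the median of all tested genes, but −0.77 when the libraries were centred on the Sertoli markers. By its mean level BSG lay above 99.3% of all genes in cattle-yak and above 96.8% in yak.

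EMB (ENSBGRG00000018287) encodes embigin, the preferred partner of MCT2. It had 41.0, 37.1 and 38.0 FPKM in C1 to C3, and 5.65, 5.20 and 5.22 FPKM in Y1 to Y3. The groups stood 6.57-fold apart at their nearest animals, with little spread in either, and the mean level was 7.23 times as high in cattle-yak. The log2 fold change was 2.64 (95% confidence interval 2.39 to 2.89, limma adjusted p = 3.4e-07), which ranked 190 from the top among the 15042 tested genes. EMB was the only one of the 9 genes that stayed higher when the libraries were centred on the Sertoli markers, at 0.51, where it no longer passed 1.

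**Figure D2:**
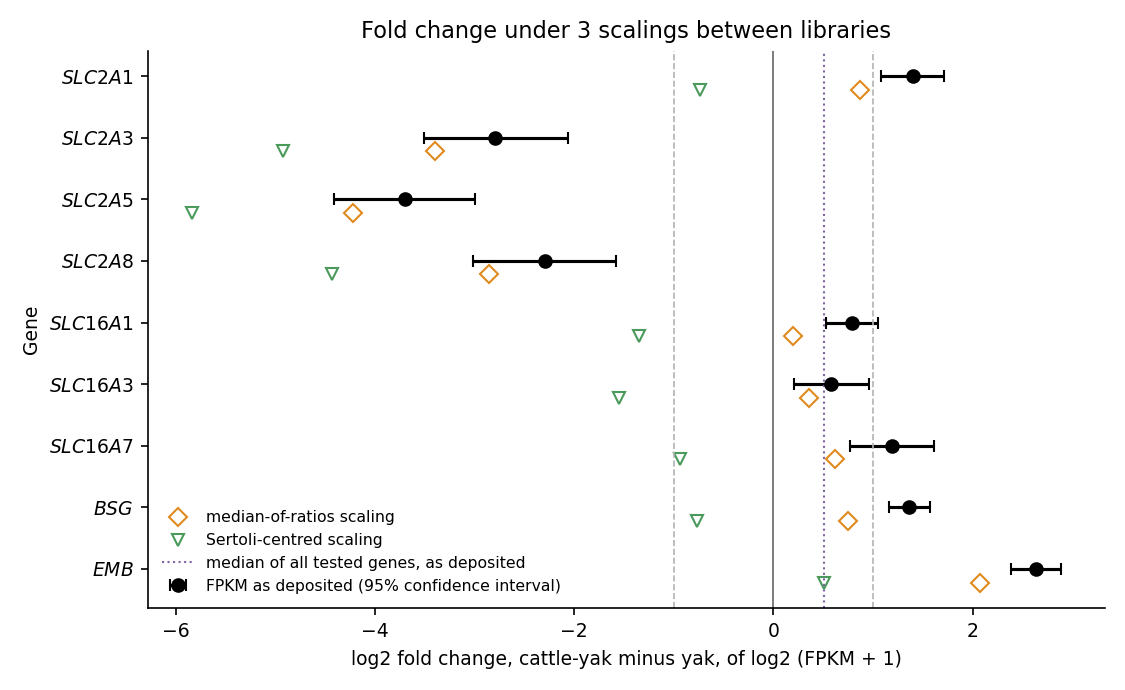
log2 fold change of log2 (FPKM + 1), cattle-yak minus yak, for the 9 genes with the FPKM as deposited (black, bars are 95% confidence intervals), after median-of-ratios scaling (orange) and after centring on the Sertoli markers (green). Dashed lines stand at the threshold of 1 in either direction and the dotted line at the median of all tested genes, 0.51. SLC2A3, SLC2A5 and SLC2A8 lie beyond −1 under all 3 scalings, EMB lies above 0 under all 3, and SLC2A1, SLC16A1, SLC16A3, SLC16A7 and BSG turn negative under Sertoli centring.

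Ratios of genes within a library do not depend on scaling between libraries. They were computed from the FPKM of each animal and are given as a description, without a test. The ratio of SLC2A3 to SLC2A1 was 4.88, 5.35 and 2.54 in C1 to C3, and 97.0, 107.3 and 64.6 in Y1 to Y3. Thus GLUT3 mRNA exceeded GLUT1 mRNA in every animal, by a far wider margin in yak. SLC2A5 and SLC2A8 both exceeded SLC2A1 in every yak animal, with ratios of 11.1 to 16.7 and 6.02 to 13.6, and both lay under it in every cattle-yak animal, with ratios of 0.149 to 0.443 and 0.350 to 0.688.

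The summed FPKM of the 4 hexose carriers had a mean of 421 ± 76.5 in yak against 71.2 ± 24.9 in cattle-yak (SD, n = 3). SLC2A1 held 14.3%, 14.1% and 24.3% of this sum in C1, C2 and C3, against 0.835%, 0.721% and 1.21% in Y1, Y2 and Y3. SLC2A3 held the largest share in all 6 animals, 61.7% to 75.6% over the cattle-yak animals and 77.4% to 81.0% over the yak animals. The share of SLC2A5 was 2.10% to 6.31% over the cattle-yak animals and 10.9% to 13.4% over the yak animals, whereas that of SLC2A8 overlapped between the groups, with 8.22% to 9.82% against 7.28% to 9.78%. SLC2A3 and SLC2A8 thus kept a ratio that overlapped between the groups, 7.09 to 9.19 over the cattle-yak animals and 7.92 to 11.1 over the yak animals, while the ratio of SLC2A5 to SLC2A8 did not overlap, with 0.255 to 0.657 against 1.24 to 1.84.

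The summed FPKM of the 3 lactate carriers had a mean of 24.0 ± 2.44 in yak against 48.6 ± 3.04 in cattle-yak (SD, n = 3). SLC16A1 made up 50.7% to 57.05% of it in cattle-yak and 56.3% to 67.4% in yak, SLC16A7 41.1% to 47.0% against 30.7% to 43.2%, and SLC16A3 1.82% to 2.34% against 0.578% to 1.87%. The shares of all 3 lactate carriers overlapped between the groups, whereas those of SLC2A1, SLC2A3 and SLC2A5 did not. For SLC2A3 the gap was narrow, from 75.6% in the highest cattle-yak animal to 77.4% in the lowest yak animal. Shares within a family depend on each other, since a larger share of any gene leaves less for the rest. They are therefore no separate results. The hexose carriers together exceeded the lactate carriers in yak, with 421 against 24.0 FPKM in the mean, and in cattle-yak the same sums were 71.2 and 48.6, with C3 at 43.0 and 51.5, the only animal in which the lactate carriers were higher.

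BSG stood above the lactate carriers in every animal. Its FPKM was 9.36, 10.3 and 9.01 times the summed FPKM of the 3 lactate carriers in C1, C2 and C3, and 8.49, 7.87 and 6.34 times in Y1, Y2 and Y3. This ratio was a little higher in every cattle-yak animal. EMB had 1.63 to 2.04 times the FPKM of SLC16A7 in cattle-yak and 0.459 to 0.857 times in yak, so that embigin mRNA exceeded MCT2 mRNA in all cattle-yak animals and in no yak animal. The ratio of BSG to EMB was 11.2 to 12.7 over the cattle-yak animals and 32.0 to 36.6 over the yak animals.

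**Figure D3:**
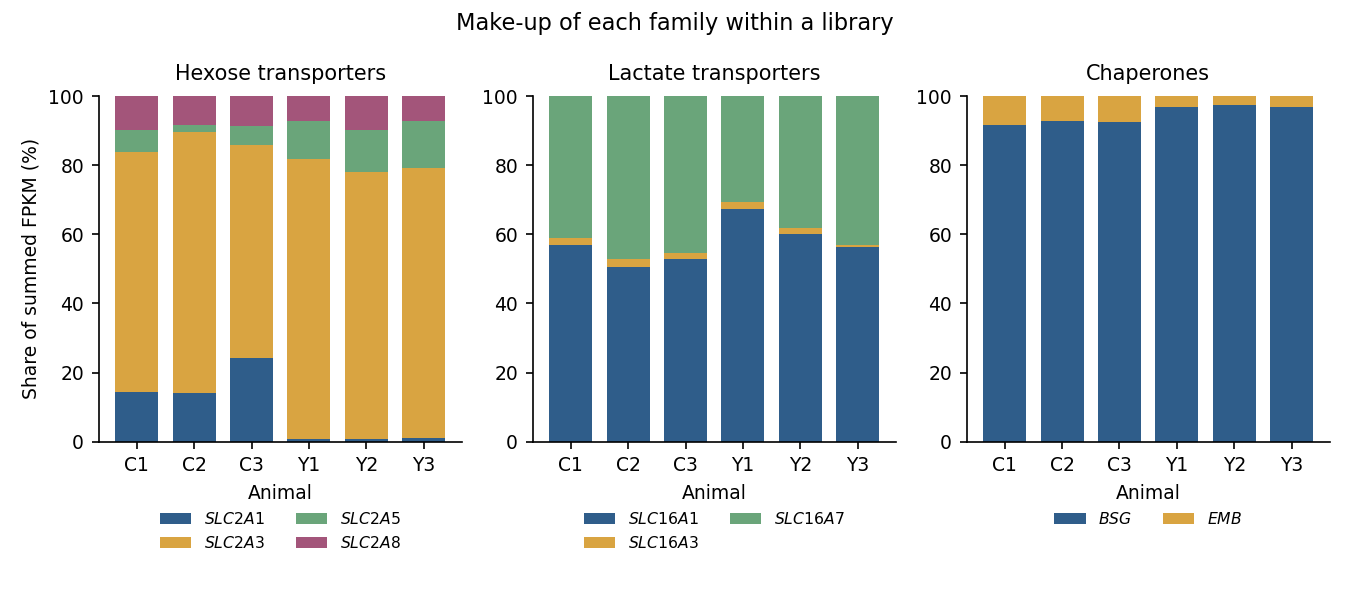
Share of each gene in the summed FPKM of its family, in percent, for the 4 hexose carriers, the 3 lactate carriers and the 2 chaperones, with 1 bar per animal. SLC2A1 takes 14.1% to 24.3% of the hexose carriers in cattle-yak and 0.721% to 1.21% in yak, whereas the shares of the lactate carriers overlap between the groups.

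Ordered by mean FPKM, yak had SLC2A3 first, then BSG, SLC2A5, SLC2A8, SLC16A1, SLC16A7, EMB, SLC2A1 and SLC16A3. Of these neighbours only SLC2A5 and SLC2A8 had ranges that overlapped between animals, though SLC2A5 was 1.24 to 1.84 times SLC2A8 within each yak animal. In cattle-yak the order was BSG, SLC2A3, EMB, SLC16A1, SLC16A7, SLC2A1, SLC2A8, SLC2A5 and SLC16A3. There the ranges over the animals overlapped for SLC2A3 and EMB, for SLC16A1 and SLC16A7, and for SLC2A8 and SLC2A5. Within each cattle-yak animal SLC16A1 was nevertheless 1.08 to 1.39 times SLC16A7, and SLC2A5 was 0.255 to 0.657 times SLC2A8. SLC2A3 exceeded EMB in C1 and C2 but not in C3. From the top, EMB stood at place 3 in cattle-yak and 7 in yak, and SLC2A5 at place 8 and 3.

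The marker lists of testis cell types moved with the groups, and their part in the results was not tested. The summed FPKM of 6 round spermatid genes was 8.75 to 42.7 over the cattle-yak animals and 1708 to 2398 over the yak animals, and that of 5 elongating spermatid genes 15.5 to 75.4 against 7433 to 9152. The median log2 fold change was −5.06 for the round and −7.65 for the elongating spermatid genes, further below 0 than SLC2A3, SLC2A5 and SLC2A8. Of the spermatid genes, the less abundant of 2 genes with the symbol CRISP2 (ENSBGRG00000023771) was listed at 0 in C3, while the other (ENSBGRG00000023959) had 4.12 FPKM there, and no further spermatid value was 0. Within cattle-yak, C1, C2 and C3 had 42.7, 25.6 and 8.75 FPKM of the round spermatid genes, and SLC2A8 and SLC2A3 were likewise highest in C1 and lowest in C3, whereas SLC2A5 was lowest in C2. Within yak the order differed, since Y3 had the highest sum of round spermatid genes and the lowest SLC2A3, SLC2A5 and SLC2A8.

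The summed FPKM of 6 spermatocyte genes lay closer together, with 278.7, 166.5 and 267.6 for C1 to C3 against 291.7 to 311 in yak. Of these genes 1 was called higher and 1 lower, with a median of 0.12. The sum hides opposite changes. PIWIL1 fell from 148.4 FPKM in yak to 15.7 FPKM in cattle-yak (log2 fold change −3.32), and SYCP3 rose from 40.7 to 91.0 FPKM (1.10). Spermatogonia genes summed to 313 to 371 FPKM over the cattle-yak animals and 75.2 to 89.2 over the yak animals, with 5 of 6 called higher and a median of 1.88.

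Among somatic cells, the Sertoli genes summed to 1651 to 1809 FPKM over the cattle-yak animals and 412 to 428 over the yak animals, the Leydig genes to 10446 to 12445 against 3345 to 4881, and the myoid genes to 584 to 782 against 119 to 147. Their median log2 fold change was 2.22, 1.92 and 2.01, so that SLC2A1, SLC16A7 and BSG, with 1.40, 1.19 and 1.36, stood under all 3 medians and EMB above them. None of these markers was listed at 0 in any animal. Genes of the endothelium, which carries GLUT1, summed to 46.6 to 68.1 FPKM against 35.2 to 41.0, with 3 of 7 called higher and 1 lower. Macrophage genes overlapped, with 120.1 to 168.2 against 108.5 to 141.4, and 4 of 7 were called higher and 2 lower. Red blood cells also carry GLUT1, MCT1 and basigin. Their markers HBA, ALAS2, SLC4A1 and AHSP summed to 3.16 to 3.49 FPKM over the cattle-yak animals and 4.16 to 8.32 over the yak animals, with ALAS2 listed at 0 in all cattle-yak animals and in Y1 and Y3.

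**Figure D4:**
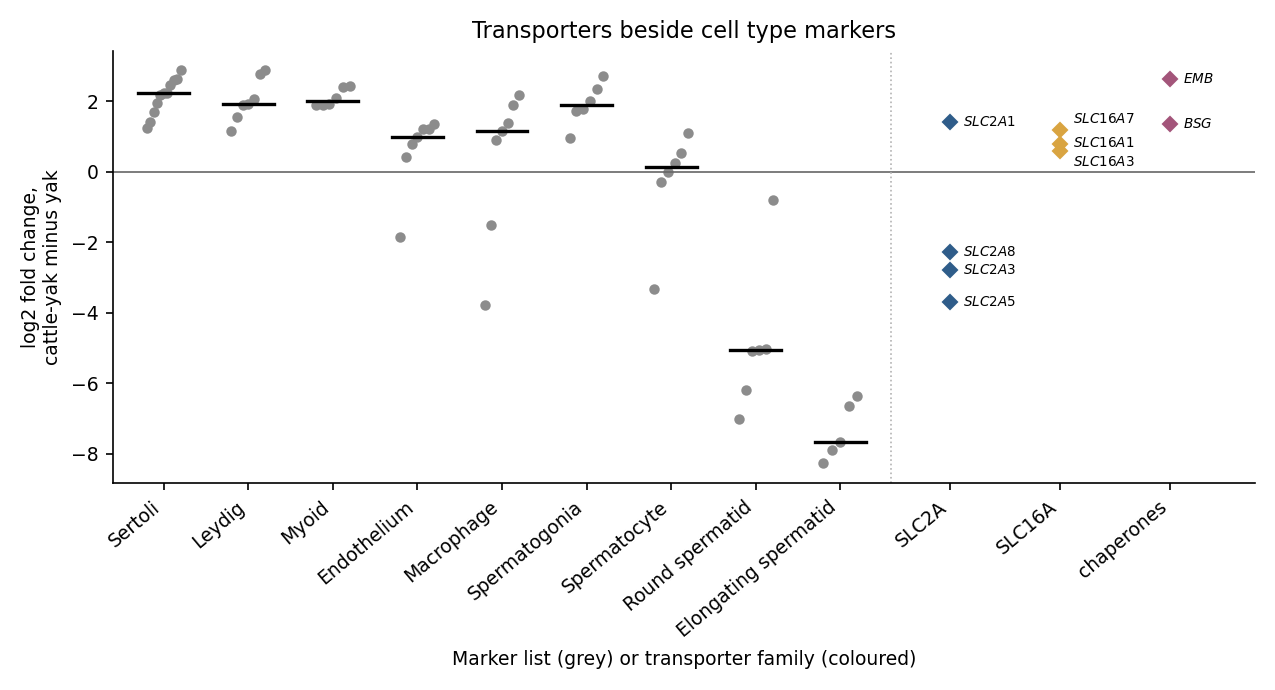
log2 fold change, cattle-yak minus yak, of each tested marker gene (grey points, with a black line at the median of its list) and of the 9 genes by family (coloured diamonds). SLC2A3, SLC2A5 and SLC2A8 lie between the spermatocyte median of 0.12 and the round spermatid median of −5.06, and EMB, at 2.64, lies above the Sertoli median of 2.22. Centred on the Sertoli markers, every value moves down by the same amount, and EMB is the only one of the 9 genes left above 0.

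Other genes that move or use sugars and lactate were taken from a list of 48 symbols, of which 39 were found, on 47 genes, and 34 genes were tested. In cattle-yak 12 of 34 genes were called higher and 9 lower (35.3% and 26.5%, against 33.4% and 20.8% of all tested genes), and the median log2 fold change was 0.33, against 0.51 over all tested genes. Of the 12 higher genes 7 turned negative when the libraries were centred on the Sertoli markers, and all 9 lower genes stayed negative. Since centring lowers all values alike, the 9 could only stay negative, and genes of low FPKM among the 7 come out too low. Further symbols of the list, among them LDHA, LDHC and HK1, were not analysed here.

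Of the other SLC2A genes 2 of 6 tested were higher and 1 lower. SLC2A12 and SLC2A9, a urate carrier, rose by 1.52 and 1.41 on the log2 scale. Their group means went from 0.877 to 4.37 and from 0.646 to 3.40 FPKM. Under Sertoli centring they had −0.62 and −0.73. In FPKM their means rose 4.98-fold and 5.26-fold, within the range of the single Sertoli genes, from 2.40-fold (AMH) to 9.29-fold (KITLG). Since the shift is applied after the pseudocount, these centred values come out too low, and their sign is uncertain. SLC2A6 fell by 1.50, from 5.13 FPKM in yak. Among 7 other tested SLC16A genes, SLC16A14, an orphan member of the family, rose from 3.58 ± 0.47 FPKM in yak to 18.1 ± 4.79 FPKM in cattle-yak (SD, n = 3). The change was 2.04 on the log2 scale and became −0.10 under Sertoli centring. Its mean FPKM rose 5.07-fold, so the centred value again comes out too low. SLC16A6 was called lower, at −1.37.

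Among the sodium-coupled carriers, SLC5A1 encodes SGLT1, the glucose carrier of gut and kidney. Its symbol stands on 3 genes, whose reads may be split between copies and which are therefore uncertain. The most abundant (ENSBGRG00000024434) stood at 34.7 ± 5.64 FPKM in yak and at 4.21 ± 1.86 FPKM in cattle-yak (SD, n = 3). Its log2 fold change was −2.83, the next had −1.72, and the third lay under the minimum for the test. SLC5A8, which carries lactate with sodium, had a log2 fold change of 1.07, and −1.07 when the libraries were centred on the Sertoli markers.

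Neuroplastin (Nptn), the remaining member of the basigin group, had 16.4 ± 1.61 FPKM in yak and 45.8 ± 1.91 FPKM in cattle-yak (SD, n = 3). It rose by 1.43 on the log2 scale (limma adjusted p = 5.7e-06) but had −0.70 under Sertoli centring. The mitochondrial pyruvate carrier subunits MPC1 and MPC2 did not pass the thresholds, with 0.57 and 0.18. LDHB, a lactate dehydrogenase subunit, stood on 3 genes, again uncertain, of which the more abundant pair stood at 25.7 and 11.05 FPKM in yak and at 126 and 60.9 FPKM in cattle-yak, with log2 fold change values of 2.25 and 2.39, and 0.12 and 0.25 under Sertoli centring. Of the hexokinases, which trap glucose inside the cell, HK2 rose by 2.25 on the log2 scale, and had 0.12 under Sertoli centring, while HKDC1 and HK3 fell by 1.83 and 1.04. HKDC1 had 75.2 FPKM in yak against 20.7 in cattle-yak. HK3 had 1.93 against 0.397 FPKM, so it reached the minimum of 0.5 FPKM only through yak and is counted on that condition.

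Beside the fructose carrier SLC2A5, SORD, which converts sorbitol to fructose, fell by 3.59, from 73.7 ± 7.58 to 5.92 ± 4.07 FPKM (SD, n = 3). KHK, the fructokinase, rose by 1.57 but had −0.57 under Sertoli centring. With a 4.59-fold rise of its mean from 1.18 FPKM in yak, the centred value comes out too low. The genes that bear on the traffic and turnover of GLUT proteins split. The arrestin-related proteins TXNIP and ARRDC4, both of which can draw GLUT1 from the surface, had 2.19 and −3.08, and TBC1D4, which holds GLUT4 vesicles inside the cell, had 2.66. Under Sertoli centring TXNIP had 0.06 and TBC1D4 0.52. TXNIP stood at 208 ± 30.4 FPKM in cattle-yak against 44.7 ± 6.58 in yak, and ARRDC4 at 20.8 ± 1.87 against 183.7 ± 14.95 (SD, n = 3). TBC1D1 stood on 2 uncertain genes that went in opposite directions, −1.25 for the abundant one and 1.05 for the other, of which the latter became −1.08 under Sertoli centring.

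**Figure D5:**
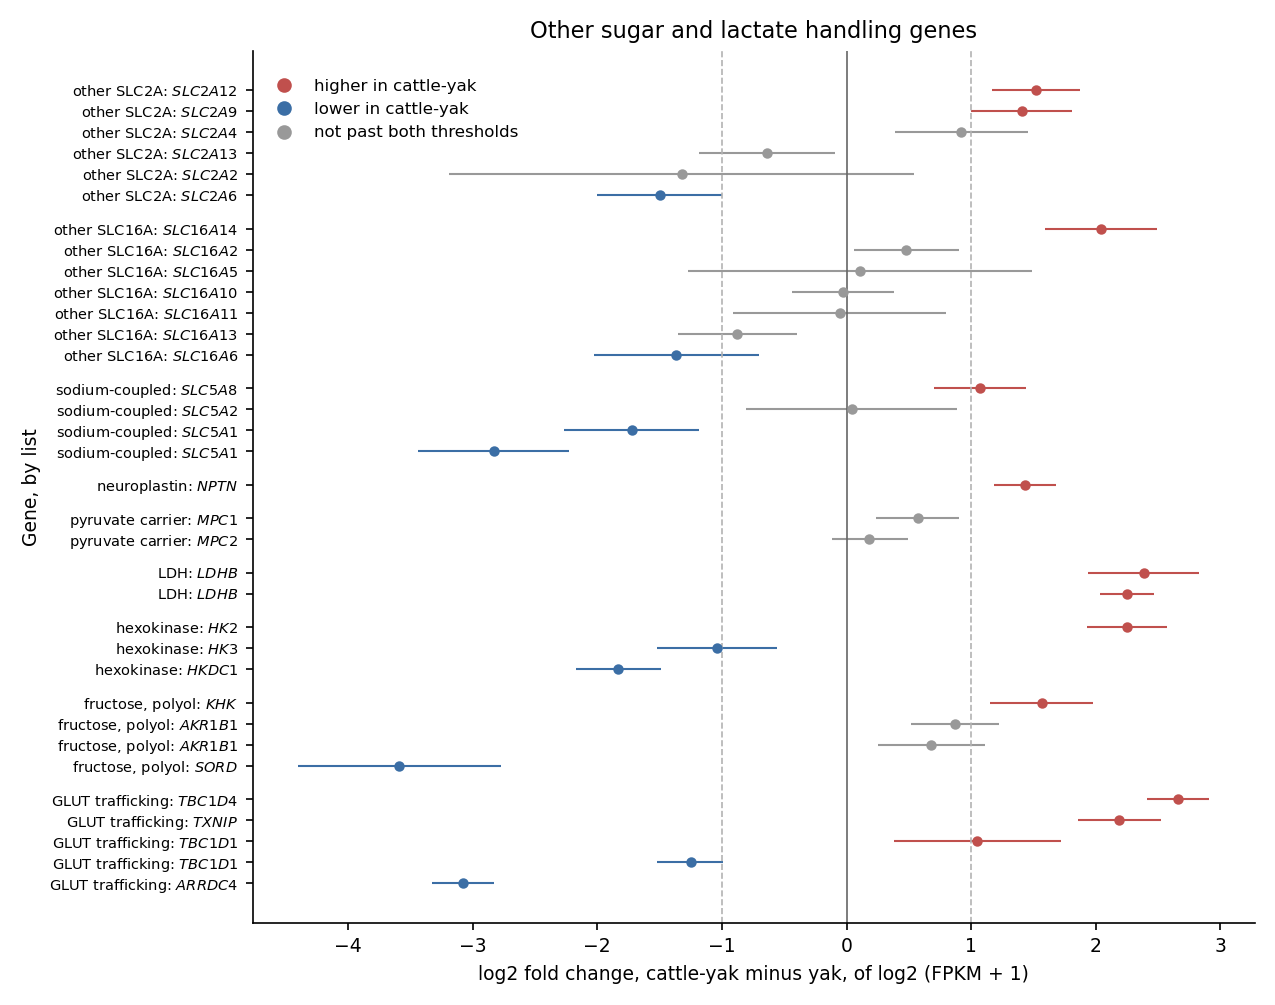
log2 fold change of log2 (FPKM + 1), cattle-yak minus yak, with 95% confidence intervals, for the 34 tested genes of the list of sugar and lactate handling genes, in red where called higher, blue where called lower and grey otherwise. SORD at −3.59 and ARRDC4 at −3.08 are the lowest, and TBC1D4 at 2.66 and LDHB at 2.39 the highest. Centred on the Sertoli markers, 7 of the 12 red points turn negative, and those of low FPKM come out too low there.

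The genes most like a carrier were sought by the root mean square difference of log2 (FPKM + 1) over the 6 animals after each gene was centred on its mean. The tested genes nearest to SLC2A3 were Jph4, a junctophilin, at 0.085, and TDRD5, a Tudor domain protein of germ cells, at 0.134, with log2 fold change values of −2.69 and −2.65. In FPKM the yak mean was 10.3 times the cattle-yak mean for Jph4, 6.27 times for TDRD5 and 6.64 times for SLC2A3. The match with Jph4, at 1.22 FPKM in cattle-yak, thus rests on the scale with the pseudocount. Nearest to SLC16A1 were EXOC8 and ATP6V1E1, at 0.029 and 0.030, and nearest to BSG were TNRC18 and OAF, at 0.042 and 0.043. Within a difference of 0.1 there was 1 gene around SLC2A3, 197 around SLC16A1 and 163 around BSG, so the patterns of SLC16A1 and BSG were shared by many genes.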

How the data were processed

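Reads of both groups were aligned by the authors to 1 reference, the yak genome (LU_Bosgru_v3.0, HISAT2, after Trimmomatic), with Cufflinks named for FPKM in the methods. The paper lists a lower share of mapped reads in every cattle-yak animal than in every yak animal. Whether reads of cattle origin were lost from single genes, and so from fold changes and ratios, was not tested. The deposited FPKM values, 1 column per animal, are not scaled between libraries. Columns were matched to animals by sample title and numbered in label order.

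The tested genes had a mean FPKM of 0.5 or more. Differences of log2 (FPKM + 1) were tested two-sided by limma (version 3.58.1, R 4.3.3, variance trend). On simulated data limma called 200 of 200 genes changed 4-fold and 3 of the unchanged among 15042 genes. The changed genes were drawn from those with many fragments, with rises and falls in equal number. Low counts and a general shift between the groups were therefore not checked by it. Whole fragments were recovered for 17973 genes from the steps of the FPKM values (100% of values within 0.03 of whole), and with them depth and gene length.

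The 9 genes, the related list and the marker lists were chosen with earlier results of these data known. Related genes named were the called ones with the largest change, at most 2 per direction and sublist, plus LDHB, Nptn, MPC1, MPC2 and TXNIP. Nearest genes were sought for the most abundant gene of each family. Alternatives were other pseudocounts, filters, scalings, limma settings, voom and the omission of each animal. Tables and figures were made with Python 3.11.15.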

Additional observations from a re-analysis of the deposited data

How the results depend on the processing

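Of 161 values recomputed for the 9 genes, 145 kept their direction and their call (past both thresholds together, or not), among them all for SLC2A3 (−4.92 to −2.39), SLC2A5 (−5.84 to −3.43) and SLC2A8 (−4.43 to −1.99) and all that left out 1 animal. Median-of-ratios scaling left 1 gene called higher (SLC2A1 0.87, SLC16A7 0.62, BSG 0.75), also with voom on fragments (SLC2A1 0.996, SLC16A7 0.67, BSG 0.75), a combination chosen after seeing the data. Quantile normalization gave SLC16A7 0.95. Centring on the Sertoli markers gave 0 genes called higher by limma and 5 lower, with SLC2A1 at −0.74, SLC16A1 −1.35, SLC16A3 −1.55, SLC16A7 −0.94, BSG −0.77 and EMB 0.51. Of the 34 related genes tested, 0 were called higher there and 24 lower, against 0.259% and 70.8% of all tested genes. That centring lowers all values alike, so SLC2A3, SLC2A5 and SLC2A8 could only stay lower, and SLC16A3, 1 of the 5, comes out too low. SLC16A1 and SLC16A3, not called, kept that call but no longer passed the adjusted p with median-of-ratios scaling (limma adjusted p = 0.152 and 8.5e-02) or with voom and that scaling (0.118 and 9.9e-02). SLC16A3 passed both thresholds with pseudocounts of 0.1 (1.40) and 0.01 (1.67) and with voom (1.62). Without the fold change threshold 6 genes were higher and 3 lower. A minimum of 5 FPKM, under which SLC16A3 has no value, tested fewer genes and left 7 related genes higher. With that minimum 3908 of all 10782 tested genes were called higher. Shares by fragments, which are not divided by length, moved for SLC2A5 in yak (13.5%), and in cattle-yak and yak for SLC16A1 (65.5%, 72.2%), SLC16A3 (0.793%, 0.534%) and SLC16A7 (33.7%, 27.3%). TMM scaling was not run. No paired analysis was possible because the labels give the groups no shared replicate numbers. Depth limits SLC16A3, with at most 18 fragments.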

Other observations

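Among the related genes, 2 had most of their summed yak FPKM in a single yak animal. They were chosen after their values were seen. SLC2A2, the glucose carrier GLUT2 of liver, had 11.01 FPKM in Y3, from 243 fragments, against 0.314 in Y1 and 0.0449 in Y2, from 7 and 1 fragments, and was at 0 or 1 fragment in cattle-yak. SLC16A5 had 8.32 FPKM in Y1, from 295 fragments, against 1.07 in Y2 and 0.684 in Y3, and 1.47 to 3.75 in cattle-yak. Neither was past the thresholds (log2 fold change −1.32 and 0.11, adjusted p = 0.159 and 0.875 from limma), and each rested on 1 library.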
